A study of Mus musculus with 24 samples.

Results

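The response of wild-type mice to morphine was compared between the ventral tegmental area (VTA) and the nucleus accumbens, to ask which genes responded alike in both regions, which in opposite directions and which differently. The comparison used the 12 libraries of the series whose labels give the genotype VDR+/+, out of 24 in all. These are mRNA libraries of bilateral brain punches, 1.5 mm in diameter, from 6 mice on the C57BL/6 background. Mice 1, 2 and 3 received PBS. Mice 1.0, 1.1 and 1.2 received morphine sulfate at 5 mg/kg by intraperitoneal injection. Libraries of the 2 regions that share a number in the labels were taken to come from 1 mouse. The study's text gives 90 min after injection for the sequenced nucleus accumbens, while its methods give 60 min for saline-injected mice in general, so the time of the PBS mice is not certain. The same groups of Vdr-/- mice, which lack the vitamin D receptor in all cells, gave the 12 libraries used for comparison. By the study's methods, Vdr-/- animals grew up on calcium-enriched food, and no such diet is named for wild-type mice. Genotype and diet therefore cannot be told apart.

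The VTA holds the dopamine neurons of the midbrain, which send axons to the nucleus accumbens, where most neurons are GABAergic medium spiny neurons bearing D1 or D2 dopamine receptors. Opioids such as morphine act on G protein-coupled receptors that lower cAMP and open potassium channels. In the VTA the μ receptor sits largely on GABA neurons, so that opioids release dopamine neurons from inhibition, while in the nucleus accumbens opioid receptors and opioid peptides are found on the medium spiny neurons themselves.

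For each gene the levels are normalised values, that is, reads divided by a size factor that evens out depth among the 6 libraries of a region. The region difference of a mouse is log2(value + 1) in its nucleus accumbens minus log2(value + 1) in its VTA. The difference of the effects is the mean region difference of the 3 morphine mice minus that of the 3 PBS mice, and equals the morphine effect in the nucleus accumbens minus that in the VTA. The regions were scaled separately, so a level or region difference compares them up to a constant that cancels in the difference of the effects. A positive value means that morphine mice were higher relative to PBS mice in the nucleus accumbens than in the VTA. Gene-assigned reads of a library numbered from 10950447 to 24509665 in the nucleus accumbens (median 16465398) and from 14358046 to 24639035 in the VTA (median 18802086). The nucleus accumbens library of PBS mouse 2 stood apart, with values that fell with exon length across genes (Spearman's rank correlation −0.319) and rose with GC content (rank correlation 0.431). Library names of PBS mice carry a prefix that those of morphine mice lack, and no label gives a preparation batch, so that a batch and the injection cannot be told apart. Nothing beyond the mouse numbers says that the tissue was processed separately. The p-values measure the spread among the libraries of a group, in which mouse, punch and preparation cannot be told apart.

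The marker genes of the punched tissue moved with the injection, and these values stand beside every result below. Of 16 dopamine neuron markers, all 16 had lower values with morphine in the VTA and 13 passed the test (adjusted p under 0.05, limma), against 6.66% of all genes. Their summed level was 54079 to 68208 in the VTA of the 3 PBS mice and 6429 to 15267 in that of the 3 morphine mice. Slc6a3, the dopamine transporter, had values of 21835, 17190.5 and 16391 in the VTA of PBS mice and 537, 2981 and 267 in that of morphine mice. Th, the rate-limiting enzyme of dopamine synthesis, stood at 8115, 6445 and 6206 and at 626, 1243 and 462. None of the VTA libraries lacked these markers, but the groups did not overlap for either gene. Markers of the hypothalamus and mammillary nuclei, which adjoin the VTA, summed to 688 to 2962 with PBS and 4189 to 19307 with morphine, and those of the thalamus to 10049 to 11756 and 12204 to 24885. The 8 tested markers of the hypothalamus and mammillary nuclei had a median log2 fold change of only 0.69, with 2 past the test. Their sum therefore does not describe each member alike. Oligodendrocyte markers fell from 242749 to 269504 to 121366 to 209019, with 9 of 12 past the test. In the nucleus accumbens the 12 medium spiny neuron markers summed to 79275 to 90794 with PBS and 49974 to 62348 with morphine (4 of 12 lower by the test, against 0.4% of all genes), and the 6 septum markers to 629 to 854 and 1555 to 2888. Thalamus markers summed there to 1389 to 1853 with PBS and 2122 to 2752 with morphine. Those of the hypothalamus and mammillary nuclei, at low levels, summed to 57 to 110 and 116 to 205. In Vdr-/- mice 0 of 16 dopamine neuron markers passed the test for morphine in the VTA (limma; 0 at an unadjusted p under 0.05), and their median log2 fold change was −0.38, against −2.21 in wild-type mice. Of the 16, 12 had lower values there, and 663 of all 16194 genes tested were called lower. The paper reports dopamine signalling genes to be lower in the VTA of saline-treated mice without the receptor. The PBS levels of the VTA punches may therefore differ between the genotypes. In such tissue, fewer cells of a type and less RNA per cell cannot be told apart. The part of tissue content in the results below was not tested.

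Other cell types differed as well. The counts of markers past the test, here and below, stand against the shares of all genes. These are 0.413% higher and 0.4% lower in the nucleus accumbens, and 5.64% higher and 6.66% lower in the VTA. Microglia markers summed to 5887 to 6399 in the nucleus accumbens with PBS and 4468 to 4999 with morphine, and to 7119 to 8315 and 4285 to 4797 in the VTA. Summed markers of the meninges and vascular wall differed in opposite directions. They went from 944 to 1097 to 1252 to 2318 in the nucleus accumbens (2 of 12 higher by the test). In the VTA they went from 2792 to 6069.8 to 1429 to 2482 (1 of 13 lower, near the share of all genes). Of 10 astrocyte markers, 2 rose in the nucleus accumbens and 4 fell in the VTA, and of 11 endothelial markers 4 fell in the VTA. Blood markers ranged from 2058 to 11949.7 in the VTA with PBS and from 885 to 1288 with morphine. Summed choroid plexus markers were higher with morphine in both regions (361 to 499.6 against 668 to 884, and 709 to 781 against 947 to 1472). The summed markers of cortical excitatory neurons overlapped between the injections in both regions, and those of the hippocampus overlapped in the nucleus accumbens. Serotonin neuron markers summed to 129 to 232 and 347 to 459 in the nucleus accumbens and to 519 to 798 and 342 to 376 in the VTA, and 2 of 7 midbrain GABA neuron markers fell in the VTA. Of the 4 tested sex-linked genes 0 passed in either region (limma; 1 at an unadjusted p under 0.05 in the VTA).

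**Figure D1:**
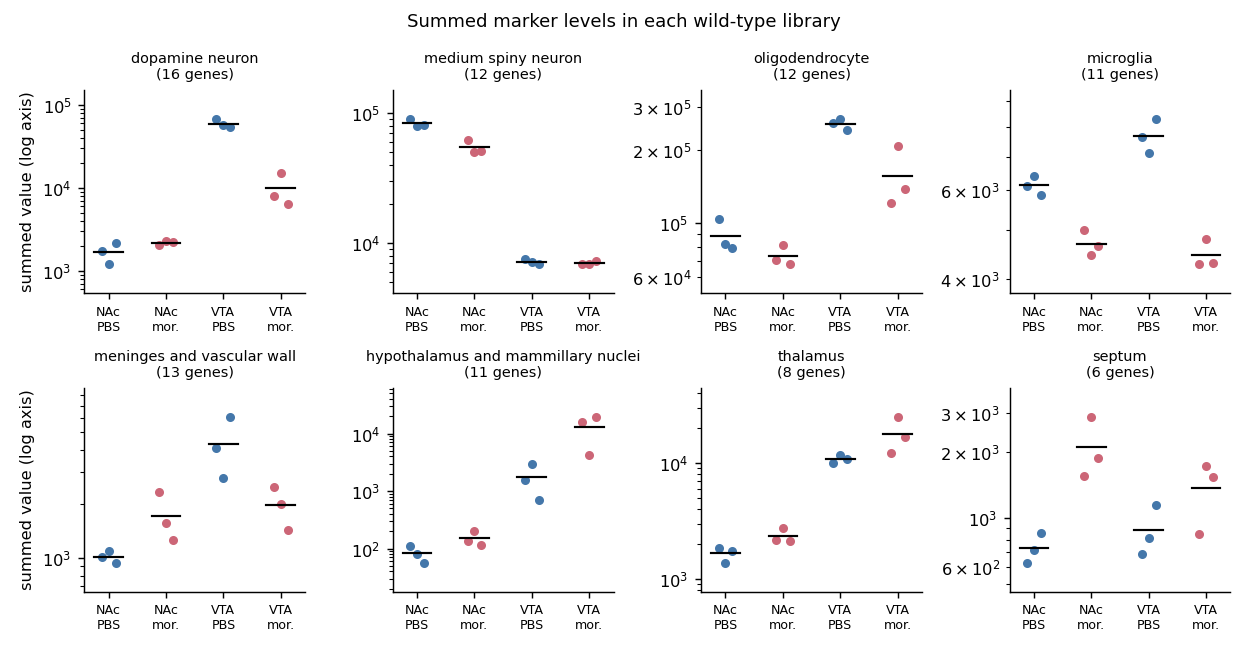
Summed normalised value of 8 lists of marker genes (vertical log axis) in each wild-type library, with the region and injection on the horizontal axis (mor., morphine); points are mice and bars are means of 3. Dopamine neuron markers in the VTA lie between 54079 and 68208 with PBS and between 6429 and 15267 with morphine.

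More genes passed the test for morphine in the VTA than in the nucleus accumbens of wild-type mice. In the nucleus accumbens 65 of 15749 genes tested were higher (0.413%) and 63 lower (0.4%) with morphine when the limma p was adjusted by Benjamini-Hochberg and held to 0.05. In the VTA 918 of 16269 were higher (5.64%) and 1083 lower (6.66%). The count in the nucleus accumbens rested on single mice, since leaving out PBS mouse 1, 2 or 3 gave 4, 625 or 9, leaving out morphine mouse 1.0 gave 19, and leaving out 1.1 or 1.2 gave 0. In the VTA it ranged from 405 without morphine mouse 1.2 to 3737 without morphine mouse 1.1, with 419, 638 and 591 without PBS mice 1, 2 and 3. In Vdr-/- mice the order was the other way round, with 1573 genes higher and 1445 lower in the nucleus accumbens, and 579 and 663 in the VTA. Among the 15299 genes tested in both regions, 13328 passed in neither, 1847 in the VTA alone and 70 in the nucleus accumbens alone. Passing in 1 region alone does not show that the effects differ, which the test of the difference addresses.

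By the test of the difference itself, 0 of 16161 genes passed at an adjusted p under 0.05 (0%), with a smallest adjusted p of 0.0649. At an unadjusted p under 0.05, 1564 genes (9.68%) had a larger value in the nucleus accumbens and 1198 (7.41%) a larger value in the VTA. The count of 0 depended on how the spread between mice was modelled. In this fit the variance trend follows the mean region difference. With the trend following expression level instead, a fit added after the data were seen, 213 genes passed, 126 larger in the nucleus accumbens (0.78%) and 87 larger in the VTA (0.538%). Leaving out PBS mouse 1, 2 or 3 turned that count into 14, 345 or 104, and leaving out morphine mouse 1.0, 1.1 or 1.2 into 101, 148 or 5. Without the pairing of the 2 regions of a mouse (no replicate block), 389 passed, 203 (1.26%) and 186 (1.15%). edgeR on the recovered reads called 210 and DESeq2 509, and 168 genes were called by these 4 fits alike, 87 of them larger in the nucleus accumbens and 81 larger in the VTA.

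Of the 10 genes named for a larger value in the nucleus accumbens, Pax5 had the smallest p. Pax5, a transcription factor of the midbrain-hindbrain boundary (GRCm38, chromosome 4, 44524757 to 44710487), had values of 627, 682 and 869.6 in the VTA of PBS mice and 2.81, 3.47 and 0 in that of morphine mice. Its values in the nucleus accumbens were 0.951, 1.3 and 2.59 and 4.56, 6.47 and 5.64, a few reads in each library. The difference of the effects was 9.50 ± 0.62 on the log2 scale (SE; adjusted p = 0.0649, limma), and 0.00205 was its adjusted p with the trend on level. It rests on the near loss of Pax5 from the 3 VTA libraries of morphine mice, so its size depends on the pseudocount.

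Sncg, which encodes γ-synuclein (chromosome 14, 34370274 to 34374789), went in opposite directions in the 2 regions. It rose in the nucleus accumbens from 15.2, 14.3 and 12.9 with PBS to 52, 71.2 and 50.8 with morphine, a log2 fold change of 1.95 ± 0.22 (SE; adjusted p = 0.0221, limma). In the VTA it fell from 1030.1, 928 and 715 to 317, 301 and 315 (−1.50 ± 0.13, adjusted p = 0.00153). No library of 1 injection overlapped with the other in either region, and the difference was 3.45 ± 0.36 (adjusted p = 0.0812).

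Kcnd3, a subunit of the A-type potassium channel Kv4.3, showed the same arrangement at high levels. Its values were 1311, 1051 and 1369 with PBS and 1898, 1974 and 2187 with morphine in the nucleus accumbens. In the VTA they were 4938, 4684 and 5054 and 2248, 2443 and 2253, with no overlap between the injections in either region. The difference was 1.79 ± 0.14 (adjusted p = 0.0812).

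Aqp4, the water channel of astrocytes, was at 5879, 5851 and 6711 in the VTA with PBS and 3282, 3361 and 2823 with morphine, and at 1222, 951 and 1254 and 1801, 1626 and 1489 in the nucleus accumbens. Its difference was 1.49 ± 0.15, with the larger share from the VTA. Gfra1, a co-receptor for glial cell line-derived neurotrophic factor, had a difference of 1.09 ± 0.13, with VTA values of 2464, 2275 and 2149 and 1186, 1395 and 1360.1. Otx2, a homeobox factor of the midbrain and choroid plexus, had one of 2.16 ± 0.25. Its nucleus accumbens values of 14.3, 14.3 and 12.9 and 28.3, 76.8 and 36.7 did not overlap, while its VTA values of 121, 107 and 146 and 61.8, 109 and 81.6 did. The other genes named on this side are Ptgs2, an inducible cyclooxygenase (1.71 ± 0.16), Mrc1, the mannose receptor of macrophages at brain borders (1.96 ± 0.19), Palmd (1.23 ± 0.12) and Myom1 (1.13 ± 0.13). In Ptgs2 each region alone was variable, with VTA values of 41.8, 38.7 and 106 and 18.7, 25.5 and 27.6, and the high library of PBS mouse 3 was high in both regions. The adjusted p of these 10 genes lay between 0.0649 and 0.0812, and 9 of the 10 passed with the trend on level.

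Among the 10 genes named for a larger value in the VTA was Rgs4. Rgs4, which shortens the signal of G proteins coupled to opioid and dopamine receptors (chromosome 1, 169741477 to 169747642), had values of 5519.7, 4063 and 5195 in the nucleus accumbens of PBS mice and 3216, 3261 and 3183 in that of morphine mice. In the VTA its values were 1692, 1484 and 1550.0 and 2773, 3807 and 3277. The groups did not overlap in either region, and the mean region difference was 1.63 in PBS mice and −0.02 in morphine mice. The VTA change passed the test (1.05 ± 0.11, adjusted p = 0.00279, limma), that in the nucleus accumbens did not (−0.60 ± 0.12, adjusted p = 0.0736), and the difference was −1.65 ± 0.16 (adjusted p = 0.0812).

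Dlx6, a homeobox factor of forebrain GABA neurons, stood at 53.4, 51.2 and 38.3 in the VTA with PBS and 131, 98.4 and 141 with morphine. Nucleus accumbens libraries had 453, 528 and 357 and 380.1, 289 and 310.3, which overlap, and the difference was −1.79 ± 0.19. Rasgrp2, an exchange factor for the small G protein Rap that is abundant in the striatum, fell in the nucleus accumbens from 1805, 1529 and 1512 to 917, 765 and 756 and rose in the VTA from 729, 695 and 632 to 799, 918 and 832. Its difference was −1.30 ± 0.15. Kcnmb4, an accessory subunit of the BK potassium channel, had a difference of −1.25 ± 0.15 that came mostly from the VTA, where it went from 77.5, 73.2 and 109.9 to 156, 189 and 180.4. Map3k5, a stress-activated kinase, likewise had VTA values of 342, 335 and 342 and 538, 588 and 619 and a difference of −0.93 ± 0.11. Rxrg, a retinoid X receptor, the class of dimer partners of the vitamin D receptor, had a difference of −1.25 ± 0.15, with nucleus accumbens values of 1168, 1187 and 1211 and 951, 676 and 667. Stk32c (−1.16 ± 0.13), Scube3 (−1.29 ± 0.14), Dbpht2 (−1.30 ± 0.15) and 4930539E08Rik (−1.28 ± 0.12) complete the 10. Their adjusted p lay between 0.0812 and 0.0815, and all 10 passed with the trend on level. For each of these 20 genes the 2 injections did not overlap in the region difference, which was part of the rule that named them. The fit with the trend on level uses the same region differences that chose these genes, so passing it is no separate support.

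**Figure D2:**
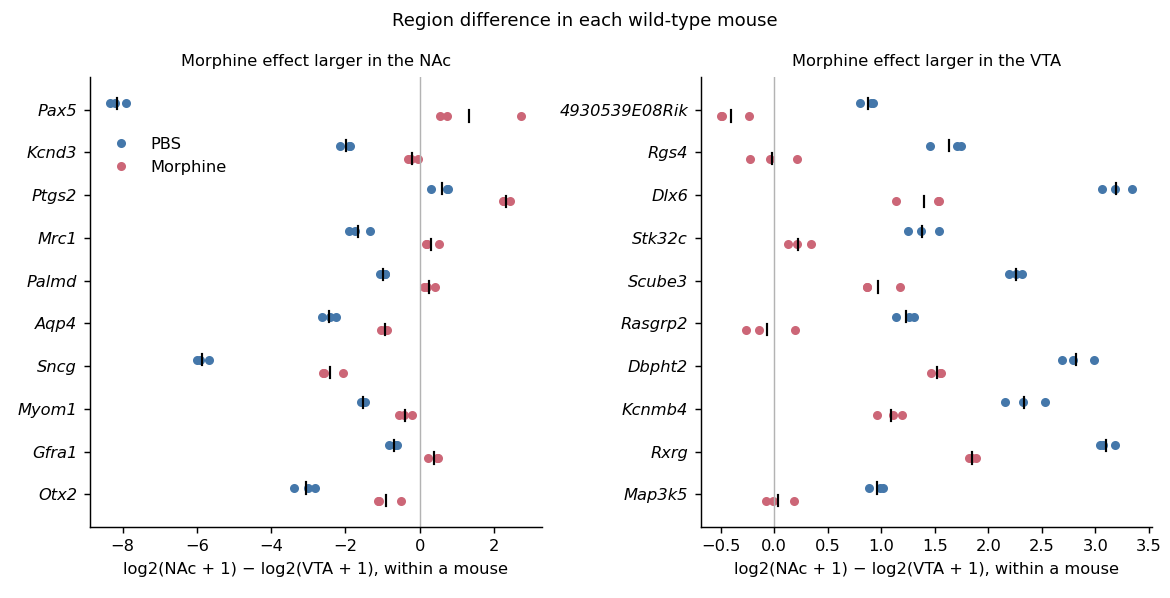
Region difference within each wild-type mouse, as log2(value + 1) in the nucleus accumbens (NAc) minus that in the VTA on the horizontal axis, for the 20 genes named by the smallest p of the difference; points are mice and black ticks are means of 3. In 19 of the 20 genes the mean of the morphine mice (red) lies nearer to 0 than that of the PBS mice (blue), the exception being Ptgs2, and the injections overlap in none of the 20 by the rule that chose them.

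Genes that mark 1 region had, in the median, smaller differences between the regions in morphine mice. To describe this apart from the wild-type values, genes were sorted by the region difference of the PBS-injected Vdr-/- mice, with a limit of 4-fold that was chosen after the data were seen. Those libraries share the name prefix of the wild-type PBS libraries. The sorting is therefore not separate from a batch or dissection common to PBS libraries, and the part of these in the shares below was not tested. Of 445 tested genes at least 4-fold higher in the VTA of those mice, 359 (80.7%) had a positive difference of the effects in wild-type mice, against 54.7% of all genes tested. Their median morphine effect was 0.52 in the accumbens and −0.27 in the VTA, and the median difference was 0.71. Of 358 genes at least 4-fold higher in the nucleus accumbens, 87 (24.3%) had a positive difference, the median effects were −0.31 and 0.25, and the median difference was −0.58. The median over all genes was 0.03. Within each mouse, the VTA-rich genes had median region differences of −2.69, −2.85 and −2.94 with PBS and −2.04, −1.95 and −2.25 with morphine. The nucleus accumbens-rich genes had 3.12, 3.07 and 2.67 with PBS and 2.33, 2.49 and 2.49 with morphine. In the region difference, neither set overlapped between the injections. In the VTA alone the nucleus accumbens-rich set did overlap. Its mean log2(value + 1) there was 4.92, 4.92 and 5.50 with PBS and 5.46, 5.26 and 5.30 with morphine. With the trend on level, 42 of the VTA-rich genes were called larger in the nucleus accumbens and 0 larger in the VTA (limma; 4 at an unadjusted p under 0.05 in the main fit), while of the nucleus accumbens-rich genes 2 and 35 were.

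**Figure D3:**
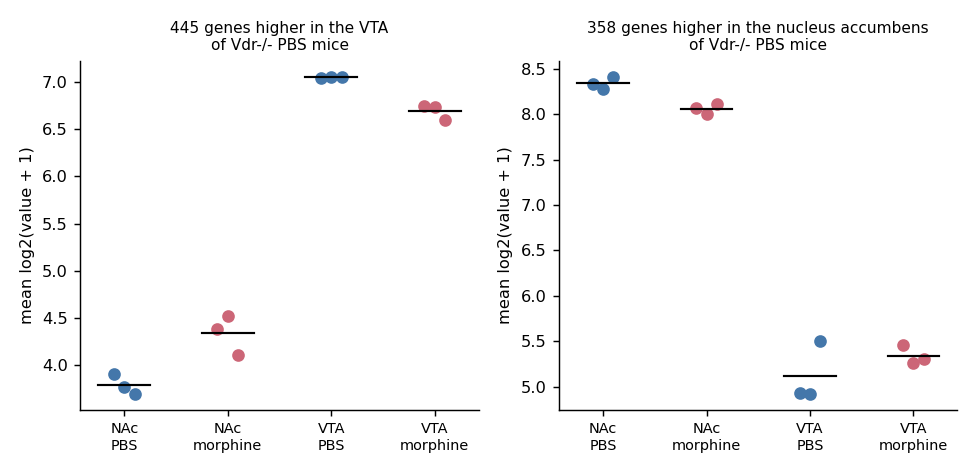
Mean log2(value + 1) (vertical axis) of the 445 genes higher in the VTA and of the 358 higher in the nucleus accumbens (NAc) of PBS-injected Vdr-/- mice, in each wild-type library by region and injection (horizontal axis); points are mice and bars are means of 3. The VTA-rich genes lie between 3.70 and 3.91 in the nucleus accumbens with PBS and between 4.11 and 4.52 with morphine, and between 7.04 and 7.05 against 6.59 and 6.74 in the VTA.

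The largest rises alike in both regions were those of small RNAs, pseudogenes and a mitochondrial gene. Of the 15299 genes tested in both, 47 (0.307%) passed in both with the same direction, 34 higher and 13 lower. Without PBS mouse 1, 2 or 3 in turn the count was 2, 73 and 5, without morphine mouse 1.0 it was 11, and without either of the others it was 0. Rny3 and Rny1, the Y RNAs made by RNA polymerase III, had the largest changes. Rny3 stood at 0, 2.6 and 0.647 in the nucleus accumbens with PBS and 179, 44.4 and 36.7 with morphine, and at 0.775, 0 and 0 and 160.2, 103 and 104 in the VTA. The values of Rny1 were 0, 2.6 and 0.647 and 135, 41.6 and 28.2, and 0, 1.05 and 5.11 and 118, 88 and 77.7. With PBS these genes had 0 to a few reads a library, so the size of their fold change depends on the pseudocount.

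Among the 34 genes higher in both, 9 are unprocessed pseudogenes, 4 are processed pseudogenes and 5 are genes of the mitochondrial genome (mt-Atp6, mt-Atp8, mt-Co2, mt-Co3 and mt-Nd4l). The pseudogene Gm10925 on chromosome 1, for example, had 49.5, 51.9 and 42 in the nucleus accumbens with PBS and 1386, 660.3 and 623 with morphine, and 51.9, 46 and 52.8 and 846, 969 and 544 in the VTA. Gm28439 on the same chromosome had 27.1, 24 and 30.7 and 471, 582 and 312 in the VTA, and mt-Atp8, a subunit of the mitochondrial ATP synthase, 11.6, 9.41 and 3.41 and 91.8, 116 and 55.3. Reads of near-identical copies of mitochondrial genes can be split among them, so these levels are uncertain. The named genes of this kind (Gm10222, Gm10925, Gm28437, Gm28439, Gm28661, Gm29216, Gm4076, mt-Atp8, Rny1 and Rny3) rose on the log2 scale by 2.93 to 5.22 in nucleus accumbens libraries and by 3.09 to 6.64 in VTA libraries. None of the 10 had an unadjusted p under 0.05 for the difference (limma), and all 10 also passed for morphine in both regions of Vdr-/- mice. In each of them the morphine libraries lay above the PBS libraries in both regions, and a preparation batch cannot be told apart from the injection.

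Protein-coding genes of the nucleus that rose in both regions include Plin4, a lipid droplet protein regulated by glucocorticoids (log2 fold changes of 1.66 in the accumbens punch and 1.12 in that of the VTA). Its values were 224, 136 and 129 and 391, 475 and 685, and 473, 458 and 364 and 687, 921 and 1282. Slc17a6, the vesicular glutamate transporter of subcortical neurons, rose by 1.01 and 0.53, and Htr7, a serotonin receptor, by 1.01 and 0.48. Slc17a6 is also on the list of thalamus markers, whose summed levels were higher with morphine in both regions, without overlap. Adcy8, a calcium-stimulated adenylyl cyclase, rose by 0.66 and 0.33. Slc17a6 and Htr7 were named after their values were seen.

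The 13 genes lower in both regions included Drd2, the D2 dopamine receptor of medium spiny neurons and of dopamine neurons. It stood at 3308, 3056 and 2820.2 in the nucleus accumbens with PBS and 1904, 1652 and 1582 with morphine, and at 2174, 1810.1 and 1704 and 453, 693 and 624 in the VTA. The log2 fold changes were −0.84 ± 0.10 (SE; adjusted p = 0.0257, limma) and −1.70 ± 0.16 (adjusted p = 0.00212). Its VTA change moved with the dopamine neuron markers. Ano2, a calcium-activated chloride channel, fell by 1.24 and 2.17, Gsg1l, an auxiliary AMPA receptor protein, by 0.81 and 0.74, and Tgfa, a ligand of the EGF receptor, by 0.68 and 0.68. Sox10, a factor of oligodendrocytes, fell by 0.69 and 1.01, and Cx3cr1, the fractalkine receptor of microglia, by 0.58 and 0.94. All 11 microglia markers had lower values with morphine in both regions, and the test was passed by 1 of them in the nucleus accumbens and 10 in VTA libraries. Asic4, Lmo4, Anp32b and the noncoding Gm10076 are the other named genes of this class, with VTA values of 399.6, 339.7 and 368 and 202, 184 and 199 for the last.

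Opposite changes past the test in both regions were found in 7 genes (0.0458% of those tested in both). Leaving out PBS mouse 2 gave 14, morphine mouse 1.0 gave 2 and any other mouse 0. Gfap, the intermediate filament of astrocytes, rose in the nucleus accumbens from 514, 446 and 483 to 912, 825 and 747 and fell in the VTA from 4094, 4152 and 5748 to 2042, 461 and 856. Its difference was 3.09 ± 0.50 (adjusted p = 0.108, limma), and the fall ranged widely among the 3 morphine mice. Bcat1, an aminotransferase of branched-chain amino acids, rose by 0.51 and fell by 0.27, beside Sncg and Kcnd3 described above. In the other direction, Ngef, a guanine nucleotide exchange factor, fell in the nucleus accumbens from 7247, 7008 and 6656 to 4854, 4711 and 4507 and rose in the VTA from 822, 788 and 842 to 1423, 977 and 1203. Lzts3, a postsynaptic scaffold protein, fell by 0.68 and rose by 0.28, beside Rasgrp2. The genes that rose in the nucleus accumbens were lower there than in the VTA in PBS mice, and those that fell were higher there. At unadjusted p under 0.05 in each region, 315 genes had opposite and 810 the same direction. Ret, the signalling receptor for glial cell line-derived neurotrophic factor on dopamine neurons, was among the former, with values of 142, 75.3 and 88 and 223, 366 and 209 in the nucleus accumbens and 10817, 9359.7 and 8729.6 and 1639, 3312 and 1367 in the VTA. Slc18a2, the vesicular monoamine transporter, had 36.1, 9.08 and 28.5 and 37.4, 115 and 59.2, and 8221, 6756 and 6492 and 994, 1329 and 539. Drd1, the D1 receptor, had 3522, 3462 and 3063 and 2622, 1839 and 2005, and 74.4, 47 and 64.7 and 112, 104 and 96.1. Ordered by the smaller of their 2 effects, the genes named among these 315 also included Myoc, Pappa, Fmod and C1ql2 (higher in the nucleus accumbens) and Kcnh4, Ramp3, Hmcn2, Serpina9, Rem2 and Gpr6 (higher in the VTA). Myoc, a matrix protein of the meninges, ranged from 0 to 201.5 in the VTA of morphine mice, so 1 library carries most of its level there.

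**Figure D4:**
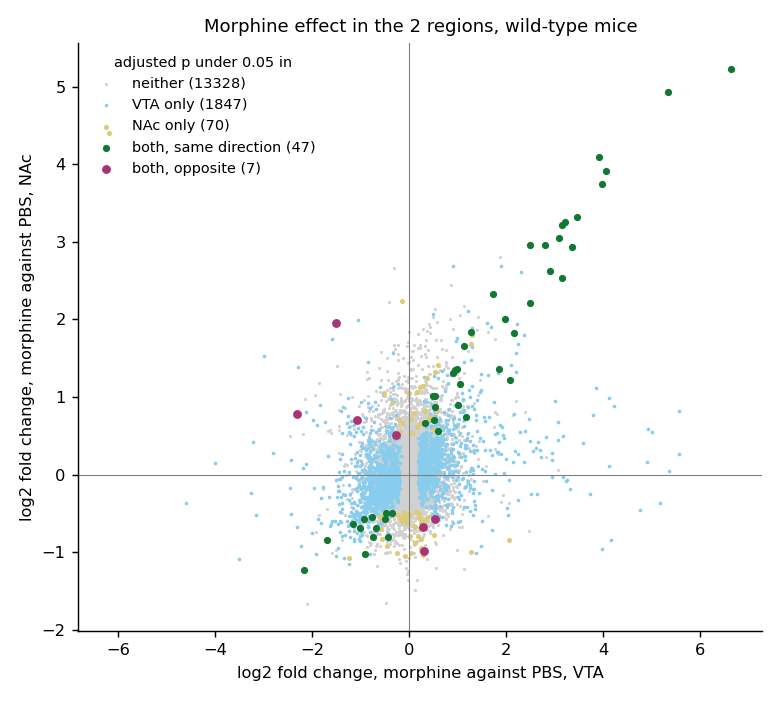
Log2 fold change of morphine against PBS in the VTA (horizontal axis) and in the nucleus accumbens (NAc, vertical axis) of wild-type mice for the 15299 genes tested in both, coloured by the regions in which the adjusted p was under 0.05. The 47 genes with the same direction (green) run along the diagonal up to 6.64 and 5.22 for Rny3, and the 7 opposite genes (purple) lie off it.

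Among the opioid receptors and peptide precursors, 0 of 7 tested genes passed for the difference (limma; 2 at an unadjusted p under 0.05) and 2 passed with the trend on level, both larger in the VTA. The median difference was 0.04, but its sign was not stable. It was −0.56 without PBS mouse 2, −0.02 without PBS mouse 1, −0.10 without morphine mouse 1.1 and −0.27 with array weights, and 0.10 and 0.08 without morphine mice 1.0 and 1.2. Pdyn, the dynorphin precursor, had the largest difference of the 7. Its values were 24.8, 57.5 and 60.5 in the VTA with PBS and 717, 198 and 629 with morphine, a log2 fold change of 3.31 ± 0.52 (SE; adjusted p = 0.0106, limma). In the nucleus accumbens the values of 1963, 3547 and 1919.8 and 2761, 1659 and 1956 overlapped, and the difference was −3.50 ± 0.58 (adjusted p = 0.108). Pdyn is also made in the hypothalamus, whose 8 tested markers all had higher values with morphine in the VTA, 2 of them past the test. Penk, the enkephalin precursor, stood at 13427, 16018 and 11124 and 9187, 7193 and 7909 in the nucleus accumbens, with no overlap, and at 759, 945 and 703 and 1262, 794 and 1214 in the VTA, with overlap. It passed in neither region (adjusted p = 0.0804 and 0.163), and its difference was −1.15 ± 0.28.

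Oprm1, the μ receptor on which morphine acts, rose in the VTA from 198, 202 and 191 with PBS to 301, 278 and 321 with morphine (0.60 ± 0.09, adjusted p = 0.00895, limma). Its nucleus accumbens values were 255, 14.3 and 215 and 187, 237 and 249.6. The low value is the library of PBS mouse 2, which stood apart over all genes, and without that mouse the difference of 0.64 ± 1.09 became −0.69. Pnoc, the nociceptin precursor, rose in the VTA from 159.6, 224 and 193 to 291, 315 and 311 and stood at 59, 33.7 and 34.9 and 74.7, 146 and 106 in the nucleus accumbens, where it did not pass (adjusted p = 0.103). Oprd1, Oprk1 and Oprl1, the δ, κ and nociceptin receptors, passed in neither region, with differences of −0.41 ± 0.27, 0.09 ± 0.15 and 0.04 ± 0.17. Pomc, the β-endorphin precursor, had 10.8, 11.5 and 11.9 and 14.1, 9.26 and 11.8 in the VTA and too few reads in the nucleus accumbens to be tested.

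Of the 33 proteins that carry the signal of opioid receptors, 12 rose and 1 fell in the VTA, and 1 rose and 1 fell in the nucleus accumbens. Over all genes tested, 5.64% rose and 6.66% fell in the VTA and 0.413% and 0.4% did in the nucleus accumbens, and the counts of the lists that follow stand against these shares too. For the difference 25 of 33 had negative values, with a median of −0.20 against 0.03 over all genes, and 4 passed with the trend on level. Kcnj9, a subunit of the potassium channels that opioid receptors open, rose in the VTA from 863, 895 and 906 to 1314, 1691 and 1459, and its difference was −0.86 ± 0.16. Kcnj3 and Kcnj5 also rose in the VTA (0.50 and 0.66), while Kcnj6, the subunit of dopamine neurons, fell by 0.69. Adcy5, the main adenylyl cyclase of the striatum, fell in the nucleus accumbens from 21553, 21583 and 19583 to 14109, 12836 and 12574 and stood at 4025, 3751 and 3856 and 4064, 4221 and 4229 in the VTA. Its difference was −0.77 ± 0.14 (adjusted p = 0.117 and, with the trend on level, 0.0262). Gng2, Cacna1b, Adcy3, Prkacb, Rgs7, Rgs9 and Rgs14 were the other members that rose in the VTA, beside Rgs4 and Adcy8, by 0.24 to 1.31 on the log2 scale.

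Of the 15 dopamine receptor signalling genes tested, 12 had negative differences, with a median of −0.43, and 5 passed with the trend on level. In the nucleus accumbens 4 fell and 0 rose (limma; 0 rose at an unadjusted p under 0.05), with a median of −0.49. Besides Drd2 and Adcy5 these were Pde1b, a calcium-dependent phosphodiesterase (17164, 17877 and 14801 with PBS and 10968, 9071 and 8883 with morphine), and Ppp1r1b, the dopamine-regulated phosphoprotein DARPP-32 (13921, 14533 and 12029.7 and 8473, 7046 and 7250.1). In the VTA 3 rose and 2 fell. Several of these genes are medium spiny neuron markers, all 12 of which had lower values with morphine in the nucleus accumbens. Calcrl, a receptor for calcitonin gene-related peptide, fell in the VTA from 188, 182 and 172 to 142, 132 and 113 and had a difference of 0.63 ± 0.11.

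Immediate early genes are those that neurons transcribe within minutes of activity. Of the members tested, 5 of 26 rose and 2 fell in the VTA (5.64% and 6.66% of all genes), and 2 of 28 rose and 0 fell in the nucleus accumbens (0.413% and 0.4% of all genes; limma; 1 fell at an unadjusted p under 0.05). Fos stood at 213, 197 and 333 in the nucleus accumbens with PBS and 276, 341 and 330.0 with morphine, which overlap. In the VTA it stood at 318, 233 and 240.2 and 334, 368 and 383, which do not, and it passed in neither (adjusted p = 0.381 and 0.0558). Its difference was −0.08 ± 0.27. Fosb, its close relative, rose in the VTA from 76.7, 65.8 and 70.7 to 199, 152 and 136, and stood at 379, 321 and 407 and 363, 529 and 530.3 in the nucleus accumbens, with a difference of −0.81 ± 0.31. Nptx2, a secreted pentraxin that gathers AMPA receptors, rose in the VTA from 27.9, 57.5 and 58.8 to 424, 256 and 421 (2.94 ± 0.32) and its difference was −2.75 ± 0.47. In the nucleus accumbens it overlapped, at 368, 249 and 492 and 311, 422 and 512. Egr1, Npas4 and Nr4a1 rose in the VTA by 0.43, 0.52 and 0.62, while Arc fell by 0.61 and Nr4a2, a factor of dopamine neurons, by 1.06. Atf3, a stress-induced factor, went the other way. It rose in the nucleus accumbens from 9.51, 7.79 and 9.7 to 31.9, 37.9 and 26.8, stood at 9.29, 8.36 and 9.37 and 10.3, 6.94 and 9.22 in the VTA, and had a difference of 1.76 ± 0.24 at a low level. Fosl2 also rose in the nucleus accumbens (0.82), with a VTA effect of 0.58 that did not pass, and Rgs2 had a difference of −0.53 ± 0.13 without passing in either region. In Vdr-/- mice 15 of 28 members rose in the nucleus accumbens, where 1573 of all 15820 genes tested did, and 5 of 26 in the VTA, where 579 of 16194 did.

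Of the CREB and cAMP target genes, 6 of 33 tested rose and 3 fell in the VTA (5.64% and 6.66% of all genes), and 1 rose in the nucleus accumbens (0.413% of all genes). The median effect was 0.33 in the VTA and 0.19 in the nucleus accumbens, and the median difference −0.14, which was −0.05 without morphine mouse 1.0 and −0.22 without morphine mouse 1.1. Vgf, a secreted neuropeptide precursor, rose in the VTA from 2604, 2771 and 3065 to 4375, 5532 and 6067, beside Pdyn, Per1, Pcsk1, Nfil3 and Nr4a1. Th, Ppargc1a and Nr4a2 fell there, and the difference of Th was 3.04 ± 0.46. Sik1, a kinase that curbs CREB coactivators, rose in the nucleus accumbens from 330.0, 382 and 363 to 518, 562 and 530.3 and stood at 347, 257 and 335 and 509.7, 421 and 403 in the VTA (adjusted p = 0.0506, limma). Among MAP kinase feedback genes 2 of 15 rose in the VTA and 0 passed in the nucleus accumbens (limma; 4 at an unadjusted p under 0.05). The 2 are phosphatases, Dusp14 (difference −1.16 ± 0.16) and Dusp8 (−0.45 ± 0.12). Dusp4, with a difference of 0.63 ± 0.12, passed in neither region.

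Glucocorticoid-responsive genes had the highest median of the 11 pathway lists in the nucleus accumbens, 0.48, with 2 of 27 tested past the test, and 0.27 in the VTA, with 6 of 27. The median difference of 0.21 became 0.13 when PBS mouse 1 was left out, and 0.12 or 0.14 when morphine mouse 1.0 or 1.2 was. Gjb6, a connexin of astrocytes, rose in the nucleus accumbens from 366, 349 and 283 to 727, 726 and 715 and stood at 1350.0, 1190.3 and 1193 and 1533, 1362 and 1452 in the VTA, with a difference of 0.91 ± 0.14 (adjusted p = 0.106, limma). Plin4 is described above. Tsc22d3, a classic glucocorticoid target, stood at 922, 753 and 631 and 1259.8, 1455 and 1262 in the nucleus accumbens, without overlap, but overlapped in the VTA and passed in neither, with a difference of 0.63 ± 0.13. Pdk4, a kinase that curbs glucose oxidation, had one of 0.59 ± 0.12. Cdkn1a, a cell cycle inhibitor, rose in the VTA from 256, 203 and 149.9 to 442, 709 and 608. Fkbp5 and Ddit4, which answer stress hormones, rose there by 0.50 and 0.75, and Svop by 0.22.

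Of the 20 core clock genes, 17 had negative differences (median −0.24), and 0 passed in the main fit or with the trend on level (limma; 10 at an unadjusted p under 0.05 in the main fit). Dbp, an output gene of the clock, fell in both regions, from 1283, 1519.6 and 1361 to 903, 709 and 781 in the nucleus accumbens and from 757, 847 and 785 to 598, 581 and 586 in the VTA. Nr1d1, the repressor REV-ERBα, fell in the nucleus accumbens from 2090.3, 2244 and 2419 to 1577, 1557 and 1609 and stood at 1749, 1662 and 1911 and 1769, 1810.1 and 1617 in the VTA. Arntl, which encodes the activator BMAL1, rose in the VTA by 0.42 and Rorb by 0.63, and Hlf had a difference of −0.95 ± 0.24. In Vdr-/- mice 9 of the 20 clock genes had positive and 11 negative differences. The hour at which each mouse was killed is not given in the sources used here.

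Few heat shock and respiratory chain genes passed in either region, while 4 of 21 endoplasmic reticulum chaperones rose in the VTA (5.64% of all genes). Of 22 heat shock genes, Hsph1 rose in the VTA by 0.36 and none of the 22 passed in the nucleus accumbens (limma; 1 at an unadjusted p under 0.05). Hspb8 and Hspa8 had differences of 1.15 ± 0.45 and 0.20 ± 0.10. Of 21 chaperones of the endoplasmic reticulum, Hspa5, Hsp90b1, Pdia6 and Hyou1 rose in the VTA by 0.22 to 0.38, Edem1 fell by 0.34, and 15 of 21 had negative differences (median −0.08, and −0.05 without morphine mouse 1.2). Manf and Atf4 had differences of −0.25 ± 0.10 and 0.30 ± 0.12. Of 35 oxidative phosphorylation subunits encoded in the nucleus, 33 had positive differences, all under 0.5 (median 0.13, but 0.08 when PBS mouse 1 was left out, and 0.05 or 0.22 when morphine mouse 1.0 or 1.1 was), and 32 had lower values with morphine in the VTA (median −0.18). Ndufb3, Uqcrc1 and Cox4i1 passed there, falling by 0.25, 0.28 and 0.37. Cycs, Ndufb6 and Cox5a had the smallest p for the difference, at 0.32 ± 0.12, 0.41 ± 0.17 and 0.40 ± 0.18.

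**Figure D5:**
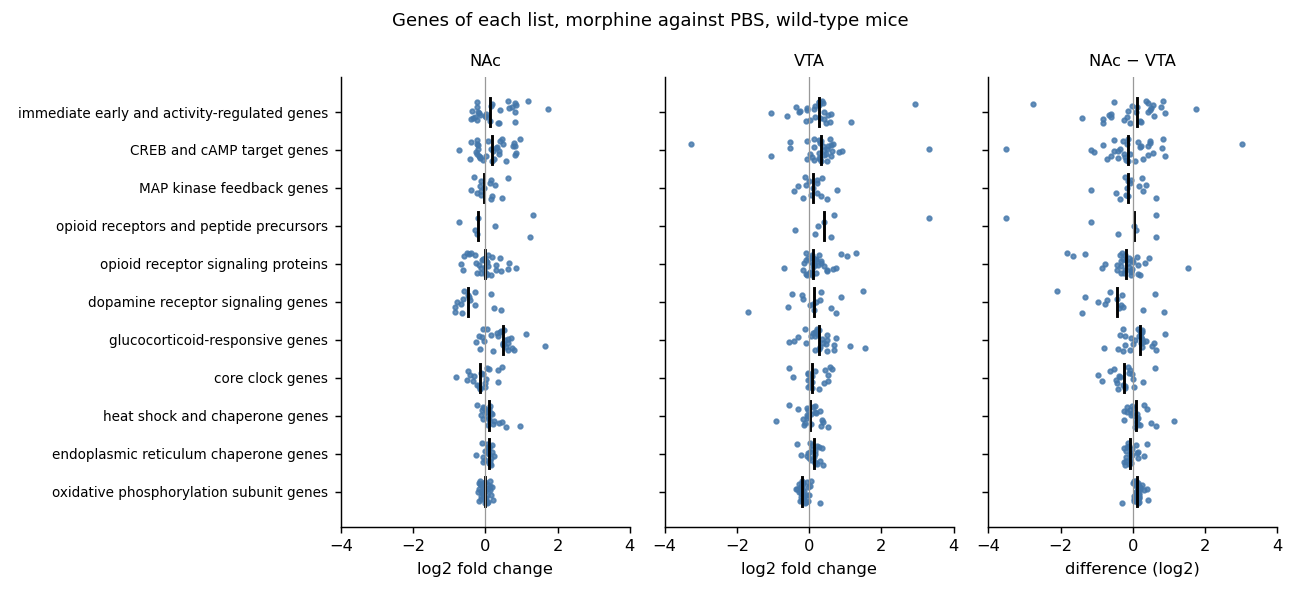
Log2 fold change of morphine against PBS in the nucleus accumbens (NAc), in the VTA, and their difference (horizontal axes), for each tested gene of the 11 lists (vertical axis); points are genes and black ticks are list medians. The median difference is −0.43 for dopamine receptor signalling genes and 0.21 for glucocorticoid-responsive genes.

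Region dependence was then set beside that of Vdr-/- mice, whose libraries are separate. Their names too carry the prefix with PBS and lack it with morphine. A batch and the injection therefore cannot be told apart in either genotype, nor in the agreement between them. In those mice 0 of 16153 genes passed for the difference (limma; 1496 positive and 1171 negative at an unadjusted p under 0.05). A test of the wild-type against the Vdr-/- difference called 0 of 16154 genes (limma; 856 at an unadjusted p under 0.05, and 4 by DESeq2 with adjustment). Of the 126 genes called larger in the nucleus accumbens of wild-type mice with the trend on level, 114 of the 124 tested had the same sign in Vdr-/- mice (91.9%), and of the 87 called larger in the VTA 86 had (98.9%), against 67.5% of all genes tested in both. All 20 genes named for the difference had the same sign in Vdr-/- mice, with smaller values in each, though they were chosen on the wild-type values. Pax5 stood at 1.35 there, Sncg at 2.38, Kcnd3 at 0.57 and Rgs4 at −0.92. Of the 20, 10 had an unadjusted p under 0.05 for the difference between genotypes, and none passed with adjustment. Among the listed genes, Nr4a1 had differences of −0.60 in wild-type and 0.61 in Vdr-/- mice, and Cdkn1a −0.80 and 0.47, neither past the adjusted test.

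Promoters of the genes were searched for the binding sites of factors that act downstream of the receptors. The windows are those of RefSeq, from 250 bases before to 50 after each gene start (GRCm38.p6), and 11719 of the 16161 genes tested were matched by symbol. The cAMP response element (CRE), searched as TGACGTCA, reads the same on both strands and stood in 405 of the 11719 promoters (3.46%). It stood in 5 of the 161 promoters of genes called larger in the nucleus accumbens without the pairing (3.11%) and in 4 of the 134 of genes called larger in the VTA (2.99%), and in none of the 16 matched promoters of the 20 named genes. AP-1 sites, searched as TGANTCA on both strands, stood in 13 of the same 161 (8.07%) and 15 of the 134 (11.2%). They stood in 6.12% of the 11719 and in 8.97% of the promoters of all 27025 genes that have one. Among the listed CREB and cAMP target genes, which are known for such sites, 8 of 28 promoters held a full CRE (28.6%). For 3 genes with a full CRE and differences of both signs, chosen after their values were seen, Th (3.04), Dusp8 (−0.45) and Gpr6 (−1.76), the 250 bases before the gene start follow, on the minus strand and read 5′ to 3′, with the CRE in capitals. The first base of the CRE lies 45 bases before the start of Th, 107 and 63 before that of Dusp8 and 78 before that of Gpr6, and a match is no evidence of binding.
Th, chr7:142899996-142900245: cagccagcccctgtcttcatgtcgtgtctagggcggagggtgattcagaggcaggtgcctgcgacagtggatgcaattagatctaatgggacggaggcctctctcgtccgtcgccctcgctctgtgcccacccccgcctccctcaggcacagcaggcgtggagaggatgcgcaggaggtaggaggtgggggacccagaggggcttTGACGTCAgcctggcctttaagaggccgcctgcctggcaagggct
Dusp8, chr7:142095285-142095534: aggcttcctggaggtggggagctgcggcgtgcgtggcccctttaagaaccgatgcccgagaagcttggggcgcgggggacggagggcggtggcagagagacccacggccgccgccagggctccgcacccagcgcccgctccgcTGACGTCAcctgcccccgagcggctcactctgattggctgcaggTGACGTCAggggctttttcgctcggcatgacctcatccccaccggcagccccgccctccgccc
Gpr6, chr10:41072291-41072540: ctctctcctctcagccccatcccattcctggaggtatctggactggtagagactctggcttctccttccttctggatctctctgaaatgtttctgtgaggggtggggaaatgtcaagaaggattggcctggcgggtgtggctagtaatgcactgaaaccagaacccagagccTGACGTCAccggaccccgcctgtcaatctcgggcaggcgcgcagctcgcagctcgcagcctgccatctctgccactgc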

How the data were processed

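Total RNA with a RIN of at least 8.0 was made into mRNA libraries, and per the labels the submitters' notes name CASAVA 1.8, Trimmomatic 0.36 and STAR 2.4.2a. The authors deposited a normalised signal per gene, reads divided by a size factor of each table. Dividing by the value of 1 read gave whole reads for 100% of values (tolerance 0.01), and 0 columns of the tables used were left out. The VTA libraries came from 2 tables, so their recovered reads were normalised together as 6, as were those of the nucleus accumbens. Reads per library ranged from 10950447 to 24639035, which sets the counting error of low values. Of 29952 genes, 99.8% were found in the annotation (GRCm38).

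Log2(value + 1) of genes with a mean of at least 10 was fitted with limma 3.58.1 (eBayes with trend, Benjamini-Hochberg, threshold 0.05) in R 4.3.3, as morphine against PBS in each region, and for region dependence on the region difference within each mouse. edgeR 4.0.16 and DESeq2 1.42.0 on the recovered reads were alternatives, beside scalings, filters, pseudocounts, weights and leaving out each mouse. The pairing comes from the library numbers in the labels, read as mouse numbers. Libraries of the same mouse deviated from their group means with correlations of 0.128, 0.0882 and 0.163 for PBS mice and −0.05, −0.07 and 0.10 for morphine mice. The highest with a VTA library of another mouse of the group were −0.0331, −0.0317 and −0.0886, and 0.0566, 0.137 and 0.00972. For morphine mice 1.0 and 1.1 another mouse thus correlated better, so these values give the pairing little support there. Scripts were tested on simulated data.

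Genes were named by rule. For the difference, these were the 10 per direction with the smallest p, a mean of at least 50 and no overlap between the injections, since none passed the adjusted test. For shared and opposite genes, they were the 10 per direction with the largest smaller effect, filled at unadjusted p under 0.05. All opioid receptor and peptide genes, the 3 members of each other list with the smallest p, Fos, and all list members past a test were named too. Genes were described by 11 pathway lists and 17 marker lists. Members and lists were chosen with earlier results of these data known.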

Additional observations from a re-analysis of the deposited data

Results flagged for a closer look

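The 7 genes past the test with opposite directions in the 2 regions drew attention because the same contrast, morphine against PBS, had effects of opposite sign past the threshold in each. The difference of the effects (nucleus accumbens minus VTA, log2 scale) was 3.09 for Gfap, 3.45 for Sncg, 1.79 for Kcnd3 and 0.78 for Bcat1. It was −1.11 for Ngef, −1.30 for Rasgrp2 and −0.96 for Lzts3. None of the 7 passed the adjusted test of the difference itself in the main fit. Some did in other paired fits, such as Kcnd3 with the trend on level (adjusted p = 0.00205, limma).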

How the results depend on the processing

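With 3 mice a group, single libraries decided many calls. The count of genes for region dependence was 0 in the main fit. It was 1 with size factors over 12 libraries, 2 with length and GC terms and 6 without the variance trend. A pseudocount of 5 gave 10, and a mean of at least 50 gave 51. It was 210 by edgeR, 213 with the trend on mean level (added after the data were seen) and 389 without the replicate block. DESeq2 gave 509 and array weights 583. Only the fit without the replicate block left out the pairing. Leaving out any 1 mouse gave 0 in the main fit. With the trend on mean level it gave 5 to 345 (14, 345 and 104 without PBS mice 1, 2 and 3, and 101, 148 and 5 without morphine mice 1.0, 1.1 and 1.2). The count for the nucleus accumbens, 128, was 27 without the trend, 234 with length and GC, 514 by DESeq2, 928 with array weights and 0 to 625 without 1 mouse. That for the VTA, 2001, was 796 without the trend, 6036 with array weights and 405 to 3737 without 1 mouse. Genes alike in both regions, 47, numbered 10 without the trend, 154 by DESeq2, 378 with array weights and 0 to 73 without 1 mouse. Opposite genes, 7, numbered 1 without the trend, 4 by TMM, 18 with length and GC, 53 by DESeq2, 157 with array weights and 0 to 14 without 1 mouse. DESeq2 called 4 genes for the genotype difference, against 0. The difference of Oprm1 became −0.27 with array weights, and that of Oprk1 −0.068 with array weights and −0.10 with length and GC. Leaving out 1 mouse moved it from −0.69 to 1.35 for Oprm1, −0.0010 to 0.21 for Oprk1, −0.10 to 0.13 for Oprl1 and −0.31 to 0.21 for Fos. Of 1983 values under alternatives other than leaving out a mouse 1642 kept direction and side of the threshold, and of 1026 without a mouse 727 did. Some of the fits held fewer mice or genes, and the cause of these changes was not tested.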
